A study of Mus musculus with 3 samples.

Results

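The skeletal muscle miRNAs described here are miR-1a-3p, miR-133a-3p, miR-133a-5p, miR-133b-3p and miR-206-3p, 5 of the 408 miRNA arms counted in these liver libraries. They were taken as the arms of the mouse precursors Mir1a-1, Mir1a-2, Mir133a-1, Mir133a-2, Mir133b and Mir206, and the opposite arms of these 6 precursors were counted beside them. The livers were those of C57BL/6 mice, a common inbred strain, and were taken 4 weeks after the mice had been injected with scAAV9, an adeno-associated viral vector with a self-complementary genome. The groups are TuD-miR-122 (scAAV9 carrying a Tough Decoy against miR-122), TuD-let-7 (scAAV9 carrying a Tough Decoy against let-7) and mock (scAAV9 with no Tough Decoy), so all 3 received the vector. A Tough Decoy is a hairpin RNA made in the cell that holds binding sites for its target miRNA, and neither decoy targets a miRNA described here. Each group had 1 library of RNAs gel-purified at 18 to 30 nt, with 2788922 miRNA reads in TuD-miR-122, 1568077 in TuD-let-7 and 2831414 in mock. How many mice a library stands for, and of what age and sex, was not given in the sources used here.

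miR-1, miR-133 and miR-206 are known as myomiRs, miRNAs that striated muscle makes at high levels and that liver cells make little of. miR-1 and miR-206 share a seed, the bases 2 to 8 that pair with target mRNAs, and favour muscle differentiation, whereas miR-133 acts on proliferation and splicing factors in muscle precursors. miR-1a and miR-133a are made in skeletal muscle and heart, while miR-206 and miR-133b, whose genes are neighbours, are known from skeletal muscle.

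The sequences below carry the distinctions on which the results turn, and the capitals mark the seed. They are RefSeq mature miRNAs on GRCm38.p6, plus strand. They cover miR-206-3p (chr1:20679055-20679076) and miR-133b-3p (chr1:20682834-20682855), miR-133b-3p read from its second base, and the 5p arms miR-133b-5p (chr1:20682797-20682818), miR-206-5p (chr1:20679017-20679039) and miR-1a-1-5p (chr2:180389057-180389079), of which miR-133b-5p and miR-206-5p had no read in any library.
miR-206-3p: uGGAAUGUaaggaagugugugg
miR-133b-3p: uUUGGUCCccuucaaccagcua
miR-133b-3p from its second base: uUGGUCCCcuucaaccagcua
miR-133b-5p: gCUGGUCAaacggaaccaaguc
miR-206-5p: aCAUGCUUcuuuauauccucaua
miR-1a-1-5p: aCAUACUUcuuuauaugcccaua
miR-1a-3p has the seed of miR-206-3p and the same base at 18 of 22 positions. The 3p arms of miR-133a and miR-133b share their first 21 bases and part only after them, at the last base of miR-133b-3p, so shorter reads fit both. A start at the second base moves the seed of either by 1 base.

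The muscle miRNAs were lower in both decoy libraries than in mock, by 10.7-fold in TuD-miR-122 and by 47.8-fold in TuD-let-7. Summed, with both arms, they had 1466 reads in TuD-miR-122, 111 reads in TuD-let-7 and 14809 reads in mock. That is 0.0526% of the miRNA reads in TuD-miR-122, 0.00708% in TuD-let-7 and 0.523% in mock. The scale used for levels is RPM, reads per 1000000 non-target miRNA reads, which are the miRNA reads outside the miR-122 and let-7 loci. The sum was 938 RPM in TuD-miR-122, 209.6 RPM in TuD-let-7 and 10024 RPM in mock. The exact conditional-binomial 95% interval of the fold was 10.1 to 11.3 for TuD-miR-122 below mock and 39.7 to 58.2 for TuD-let-7 below mock. The second fold depends on the scale, at 79.9 (66.3 to 97.2) where levels are taken over all reads and 73.9 (61.3 to 89.9) over all miRNA reads. Every interval here covers counting error only, since no group has a second library to show the spread between livers or preparations. In whole tissue, fewer cells of a type and less RNA per cell cannot be told apart.

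**Figure D1:**
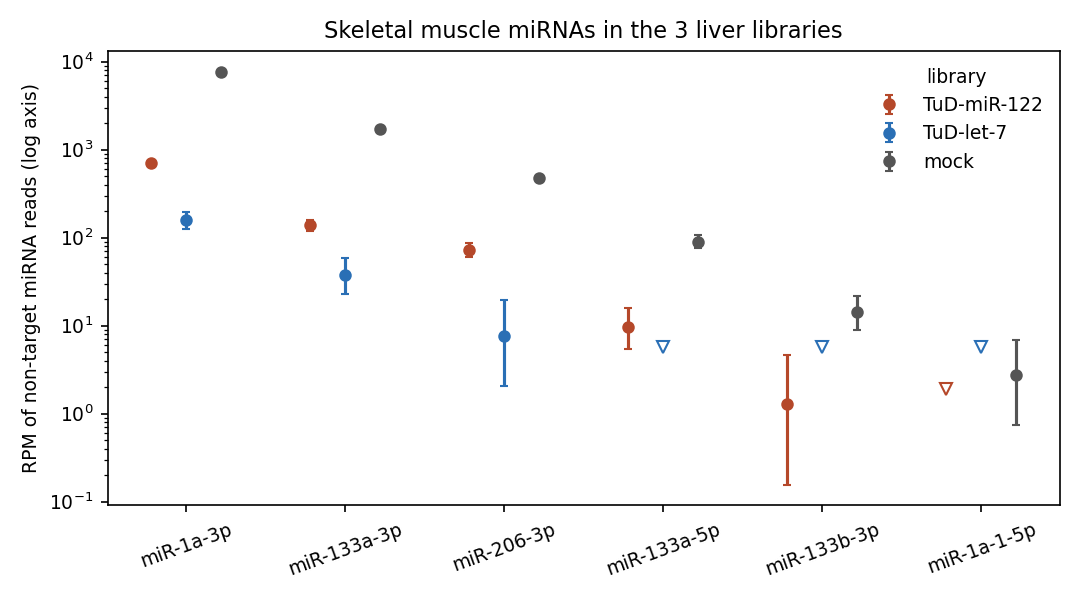
Levels of 6 arms in the 3 libraries, in RPM of non-target miRNA reads on a log axis; points are single libraries, bars are exact Poisson 95% intervals, and open triangles mark the level of 3 reads where the arm had none. The mock point lies above both decoy points for miR-1a-3p, miR-133a-3p, miR-206-3p and miR-133a-5p, from 7587 RPM for miR-1a-3p to 90.03 RPM for miR-133a-5p.

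miR-1a-3p was the most abundant of them in every library. It had 1101 reads in TuD-miR-122, 84 in TuD-let-7 and 11208 in mock, or 705 RPM, 159 RPM and 7587 RPM. The ratio of TuD-miR-122 to mock was 0.0929 (95% counting interval 0.0872 to 0.0988) and that of TuD-let-7 to mock 0.0209 (0.0167 to 0.0259). The 2 intervals are far apart, and TuD-miR-122 held 4.44 times the level of TuD-let-7 (3.56 to 5.61), or 7.36 times (5.89 to 9.30) over all reads.

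miR-133a-3p, counted from reads that carry at least 1 base not shared with miR-133b-3p, followed at a lower level. It had 215 reads in TuD-miR-122, 20 in TuD-let-7 and 2559 in mock. The ratio to mock was 0.0794 for TuD-miR-122 (0.0688 to 0.0913) and 0.0218 for TuD-let-7 (0.0133 to 0.0337). miR-133a-5p, the other arm of the same precursors, had 15 reads in TuD-miR-122, 0 in TuD-let-7 and 133 in mock. Its ratio to mock was 0.107 in TuD-miR-122 (0.0580 to 0.182). In TuD-let-7 its ratio had an interval from 0 to 0.0785, which is 12.7-fold lower than mock or more. With 3 reads in place of 0 in that library it would be 15.9-fold lower than in mock.

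miR-206-3p, the member known from skeletal muscle and not from heart, had 113 reads in TuD-miR-122, 4 in TuD-let-7 and 700 in mock. Its level was 72.3 RPM in TuD-miR-122, 7.55 RPM in TuD-let-7 and 474 RPM in mock. The ratio to mock was 0.153 in TuD-miR-122 (0.124 to 0.186), an interval that lies above that of miR-1a-3p. In TuD-let-7 the ratio was 0.0159 (0.00433 to 0.0410), which overlaps that of miR-1a-3p.

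Each member was read against all non-target arms. An arm was called where the 2 libraries together gave it 100 reads or more and the 95% counting interval of its ratio lay wholly beyond 2-fold. In TuD-miR-122 against mock, 4 of the 5 members were called lower, against 4.13% of the 242 arms tested (10 arms, these 4 included). In TuD-let-7 against mock, 4 of the 5 were called lower, against 3.55% of the 197 arms tested (7 arms, these 4 included). The fifth, miR-133b-3p, had too few reads in both comparisons. In TuD-let-7 each of the 4 had under 100 reads, and so did miR-133a-5p in TuD-miR-122, so these entered only through mock, where they were high, and their counts support nothing by themselves. In TuD-miR-122 against TuD-let-7, 3 members were called higher, against 18.9% of the 222 arms tested (42 arms, these 3 included). The other members had too few reads. The 3 called members entered through TuD-miR-122, where they were high, since each had under 100 reads in TuD-let-7. The call of miR-133a-3p was lost with exact starts, at 2.69 (1.62 to 4.75), and at a fold of 3. In that comparison miR-206-3p was the seventh highest arm, miR-1a-3p ranked 24 and miR-133a-3p ranked 28.

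In TuD-let-7 against mock 197 arms were tested, and log2 ratios are given with 0.5 reads added. They were -5.80 for miR-206-3p, -5.57 for miR-1a-3p and -5.48 for miR-133a-3p. The lowest tested arm outside the members, miR-205-5p, was at -3.99. These members had under 100 reads in TuD-let-7 and were tested only through mock, where they were high. Their ranks therefore support nothing by themselves. miR-133a-5p had 0 reads in TuD-let-7, and 3 reads there would put it at -3.99, so it cannot be ranked against miR-205-5p. Of the 242 arms tested in TuD-miR-122 against mock, miR-133a-3p, miR-1a-3p and miR-133a-5p ranked 2 to 4 from the lowest. miR-206-3p ranked 6, and miR-133a-5p, with under 100 reads in TuD-miR-122, was tested only through mock. The other two arms among the lowest 6 were miR-378d-5p, which ranked first, and miR-7j-5p. Over all 5 members, with none left out for low reads, the median log2 ratio to mock was -3.19 for TuD-miR-122 and -5.57 for TuD-let-7. With arms at 0 set to 3 reads it was -3.43 for TuD-miR-122 and -5.52 for TuD-let-7. Over the 383 non-target arms with reads it was 0.05 for TuD-miR-122 and 0.11 for TuD-let-7. Both comparisons use the same mock library.

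**Figure D2:**
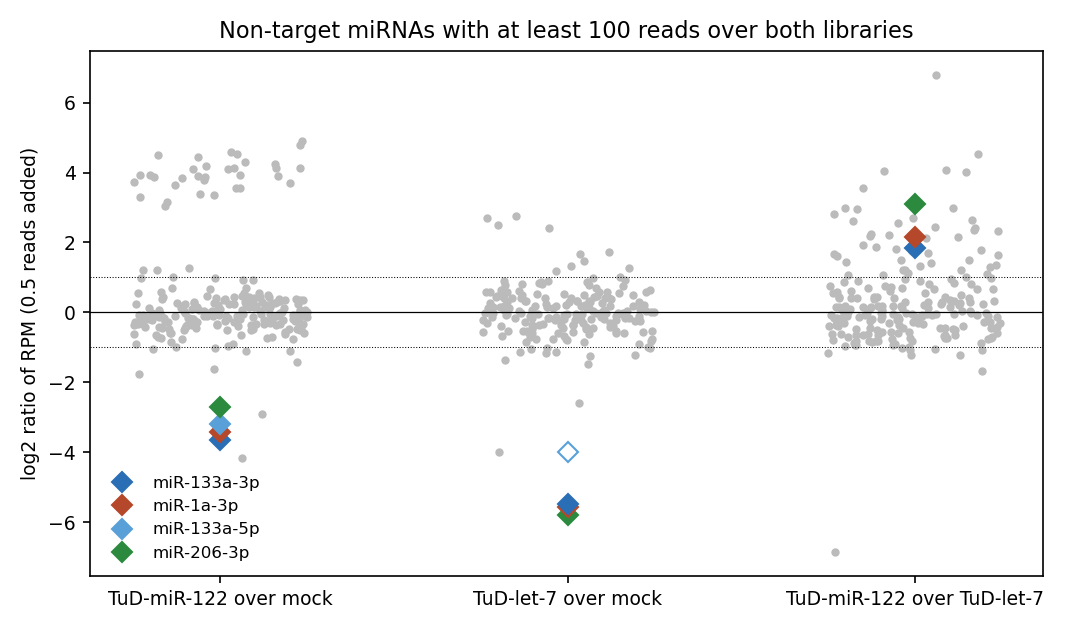
Log2 ratios of RPM (0.5 reads added) for each non-target miRNA with at least 100 reads over both libraries, in the 3 comparisons; each grey point is an arm, diamonds are muscle miRNAs, and dotted lines mark 2-fold. The diamonds lie between -2.71 and -3.65 in TuD-miR-122 over mock. In TuD-let-7 over mock the filled ones lie between -5.48 and -5.80. The open one is miR-133a-5p, drawn at -3.99, where 3 reads in TuD-let-7 would put it.

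Within the muscle miRNAs, the shares of miR-1a-3p and miR-133 had intervals that overlapped in the 3 libraries, and those of miR-206-3p in TuD-miR-122 and mock were apart. Of the reads of the 3p arms of miR-1a, miR-133 and miR-206 together, miR-1a-3p made up 75.9% in TuD-miR-122 (exact Clopper-Pearson 95% interval 73.6 to 78.1), 75.7% in TuD-let-7 (66.6 to 83.3) and 76.4% in mock (75.7 to 77.1). The 3p arms of miR-133 made up 16.3% in TuD-miR-122 (14.5 to 18.3), 20.7% in TuD-let-7 (13.6 to 29.5) and 18.8% in mock (18.2 to 19.5). miR-206-3p made up 7.79% in TuD-miR-122 (6.46 to 9.29), 3.604% in TuD-let-7 (0.990 to 8.97) and 4.77% in mock (4.43 to 5.13). Its share in TuD-miR-122 lay above that in mock by more than counting error, and the 4 reads in TuD-let-7 were too few to place it.

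No read could be given to miR-133b-3p without doubt. Of 237 miR-133 3p reads in TuD-miR-122, 215 fitted miR-133a better, 20 fitted both and 2 fitted miR-133b better. Of 23 reads in TuD-let-7 these numbers were 20, 3 and 0, and of 2764 reads in mock they were 2559, 184 and 21. The reads that fitted miR-133b better were 0.922% of those told apart in TuD-miR-122 (0.112 to 3.29), 0 of 20 in TuD-let-7 and 0.814% in mock (0.505 to 1.24). Each carried a single base of miR-133b, an A at the 3′ end of the matching part. An A added to a shortened miR-133a-3p gives the same read, and tails of only A stood on 9.88% of miR-133 3p reads in mock. Reads that fitted miR-133a by a single base numbered 18 in TuD-miR-122, 2 in TuD-let-7 and 294 in mock. The shares above are also over longer reads, which a miR-133b-3p that stops at its RefSeq end cannot give. They therefore understate miR-133b among reads that could come from either. Reads with at least 2 distinguishing bases, which must run past the RefSeq end of miR-133b-3p, fitted miR-133a in 197 cases in TuD-miR-122, 18 in TuD-let-7 and 2265 in mock. They fitted miR-133b in 0 cases in each library. In mock, 3 such reads would have been 0.132% of reads that long. miR-133b-5p, the opposite arm, also had 0 reads in all 3 libraries.

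The genes of these miRNAs lie in 3 pairs on GRCm38. Mir206 (20679010 to 20679082) and Mir133b (20682769 to 20682887) are on chromosome 1, plus strand, 3686 bases apart, both in exons of the lincRNA Gm28653. Mir1a-1 (180389048 to 180389124) and Mir133a-2 (180398379 to 180398482) are on chromosome 2, plus strand, and overlap no other annotated gene. Mir1a-2 (10785481 to 10785552) and Mir133a-1 (10782909 to 10782976) are on chromosome 18, minus strand, in introns of Mir133a-1hg and opposite an intron of the protein-coding gene Mib1. Mir1a-2 also overlaps an exon of the miRNA gene Mir1b on the opposite strand. The reads of miR-1a-3p and miR-133a do not tell their copies apart. Of the chromosome 1 pair, miR-206-3p had 700 reads in mock, beside 21 reads that fitted miR-133b-3p better than miR-133a-3p.

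The miR-133 3p reads began at 2 adjacent bases, and the later start was the more frequent. Starts at the second base made up 57.4% of reads in TuD-miR-122 (50.8 to 63.8), 73.9% in TuD-let-7 (51.6 to 89.8) and 59.9% in mock (58.1 to 61.8). Starts at the first base, that of the RefSeq miR-133b-3p, made up 39.2% in TuD-miR-122, 26.1% in TuD-let-7 and 38.4% in mock. The intervals of the second start overlap in all 3 libraries. The first start was not a mark of miR-133b: of the 1062 reads in mock that began there, 907 fitted miR-133a better, 138 fitted both and 17 fitted miR-133b better. Among reads that fitted miR-133a better, 60.9% in TuD-miR-122 and 62.8% in mock began at the second base. In the RefSeq table, the seed of the first start belongs to miR-133b-3p alone among 1679 mature entries, and that of the second start to none. The table is not complete and holds no entry for miR-133a-3p. A miR-133a-3p read from the first start has that same seed, since both arms share these bases.

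The later start carried more 3′ tails in mock, the library with most miR-133 reads. Tails are bases at the end of a read that the precursor lacks, whether added in the cell or misread. In TuD-miR-122, 27.9% of reads from the second start (20.6 to 36.3) and 26.9% from the first (18.2 to 37.1) were tailed, on 136 and 93 reads, so a gap was not detectable at that depth. In TuD-let-7, 6 of 17 reads from the second start and 1 of 6 from the first were tailed. In mock, 36.5% of reads from the second start (34.2 to 38.9) and 20.4% of those from the first (18.05 to 22.99) were tailed. The gap in mock was mainly of T, which stands for uridine. Tails of only T stood on 20.6% of reads from the second start and 10.8% from the first in TuD-miR-122, and on 21.1% from the second and 8.004% from the first in mock. Tails of only A stood on 9.66% of reads from the second start and 10.3% from the first in mock. The most frequent insert length, tails included, was 22 nt from the second start and 23 nt from the first, in all 3 libraries. Inserts of both starts thus most often ended at the same position. Where their matching parts ended was not counted by start.

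**Figure D3:**
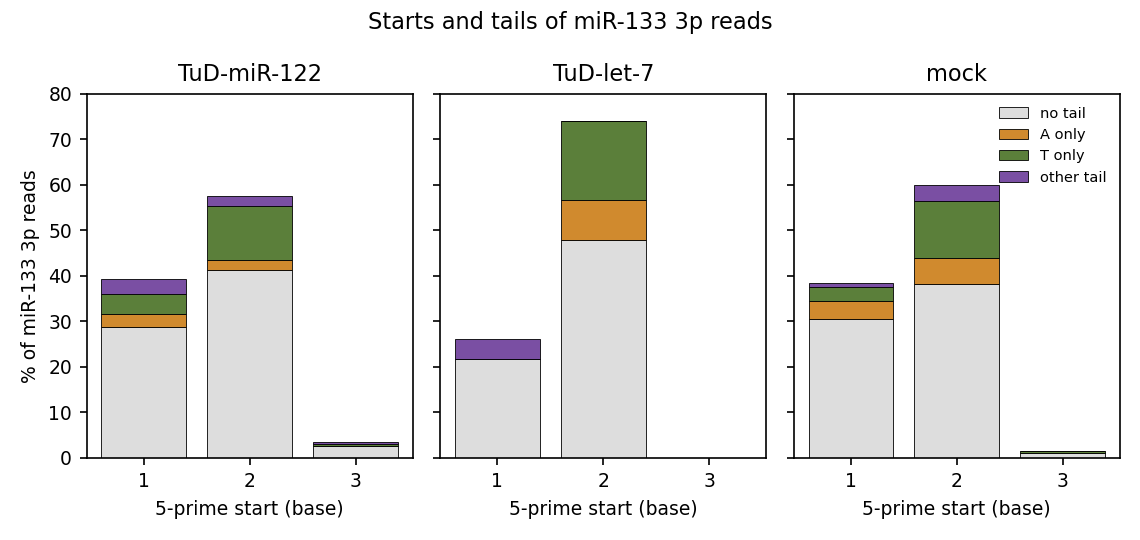
Shares of miR-133 3p reads by 5′ start (base 1, 2 or 3, counted from the start of RefSeq miR-133b-3p) in each library, split by 3′ tail; bars add up to the reads of that start and rest on 237, 23 and 2764 reads. The second start is the tallest bar in each library, and in mock its T-only part is larger than that of the first.

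The 3p arm held most reads of each of the miR-1a, miR-133 and miR-206 families. For miR-133a and miR-133b together there were 15.8 reads of 3p per read of 5p in TuD-miR-122 and 20.8 in mock. The 5p share was 5.95% in TuD-miR-122 (3.37 to 9.63), 0% in TuD-let-7 (0 to 14.8) and 4.59% in mock (3.86 to 5.42), and these intervals overlap. miR-133a-5p began at a single base in 14 of 15 reads in TuD-miR-122 and in 127 of 133 reads in mock, in contrast to the split start of the 3p arm. For miR-1a, the 5p arms had 0 reads in TuD-miR-122, 0 in TuD-let-7 and 4 in mock beside 11208 of 3p, a share of 0.0357% in mock (0.00972 to 0.0913). All 4 of these reads came from Mir1a-1, whose 5p arm differs from that of Mir1a-2, for which no read was found at the start placed by the bases that both copies share. For miR-206, no 5p read was found beside 113 reads of 3p in TuD-miR-122, 4 in TuD-let-7 and 700 in mock. In mock the interval of the miR-206 5p share reached up to 0.526%.

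The 3p arms had the same most frequent length in the 3 libraries. Reads of 22 nt made up 82.3% of miR-1a-3p in TuD-miR-122, 82.1% in TuD-let-7 and 84.1% in mock. The part matching the precursor was shorter than 21 nt in 10.99% of miR-1a-3p reads in TuD-miR-122, 15.5% in TuD-let-7 and 11.3% in mock. Reads of 22 nt made up 73.5% of miR-206-3p in TuD-miR-122 and 77.4% in mock. miR-133 3p was split between 22 nt (43.5% in TuD-miR-122, 47.8% in TuD-let-7 and 43.2% in mock) and 23 nt (39.7%, 39.1% and 41.4% in the same libraries), the lengths of its 2 starts. miR-133a-5p was most often 21 nt in TuD-miR-122 (6 of 15 reads, with 5 at 22 nt) and 22 nt in mock (56.4% of 133 reads, with 18.8% at 21 nt).

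**Figure D4:**
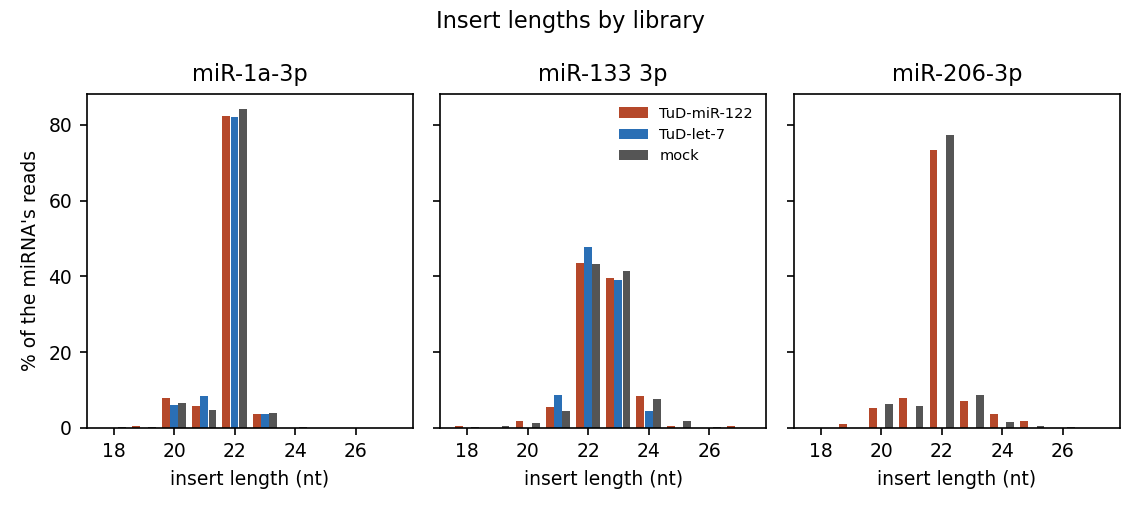
Insert lengths of miR-1a-3p, miR-133 3p and miR-206-3p as a percentage of the reads of each in each library; the 4 reads of miR-206-3p in TuD-let-7 are not drawn. miR-1a-3p and miR-206-3p peak at 22 nt, and miR-133 3p is divided between 22 and 23 nt.

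The forms of miR-206-3p show how these reads end, with lower case for the part that matches the precursor and capitals for a tail. The full 22-nt form had 75 of 113 reads in TuD-miR-122 and 463 of 700 in mock. In mock it was followed by a form 1 nt shorter with an added A (42 reads), the form extended by 1 templated base (37 reads), the form shortened to 20 nt (36 reads) and the shorter form with an added T (31 reads).
full form: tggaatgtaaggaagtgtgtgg
added A: tggaatgtaaggaagtgtgtgA
extended form: tggaatgtaaggaagtgtgtggt
20-nt form: tggaatgtaaggaagtgtgt
added T: tggaatgtaaggaagtgtgtgT
Tailed reads made up 15.9% of miR-206-3p in TuD-miR-122 (9.72 to 24.0) and 17.7% in mock (14.96 to 20.7). A alone formed the tail in 7.96% of miR-206-3p reads in TuD-miR-122 and 9.71% in mock. T alone did so in 4.42% in TuD-miR-122 and 4.86% in mock.

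miR-1a-3p had a tail of another kind, beginning with C. Tailed reads made up 23.3% of miR-1a-3p in TuD-miR-122 (20.8 to 25.9), 23.8% in TuD-let-7 (15.2 to 34.3) and 28.1% in mock (27.3 to 28.97). Reads whose tail began with C made up 16.98% in TuD-miR-122 (14.8 to 19.3), 9.52% in TuD-let-7 (4.202 to 17.9) and 22.5% in mock (21.7 to 23.3). The interval of mock lies above those of both decoy libraries. Most were 21 matching nt followed by a single C, with 159 of 1101 reads in TuD-miR-122, 5 of 84 in TuD-let-7 and 1944 of 11208 in mock. Over the non-target arms with at least 1000 reads, the median share of tails beginning with C was 0.986% in TuD-miR-122 (85 arms), 1.48% in TuD-let-7 (51 arms) and 0.846% in mock (82 arms). The next highest arm after miR-1a-3p had 6.55% in TuD-miR-122 (miR-19b-3p), 8.68% in TuD-let-7 (miR-24-3p) and 8.09% in mock (miR-455-3p). In TuD-let-7 the interval of miR-1a-3p, from 84 reads, covers that next value. Another member with such tails was miR-133a-5p, with too few reads for this ranking, at 0 of 15 reads in TuD-miR-122 and 13 of 133 in mock (9.77%, 5.31 to 16.1). The near relative miR-206-3p had 0 such reads in TuD-miR-122, 0 in TuD-let-7 and 2 of 700 in mock. An added C, a base-call error and a base change in the RNA give the same read, and which of these it is was not tested.

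**Figure D5:**
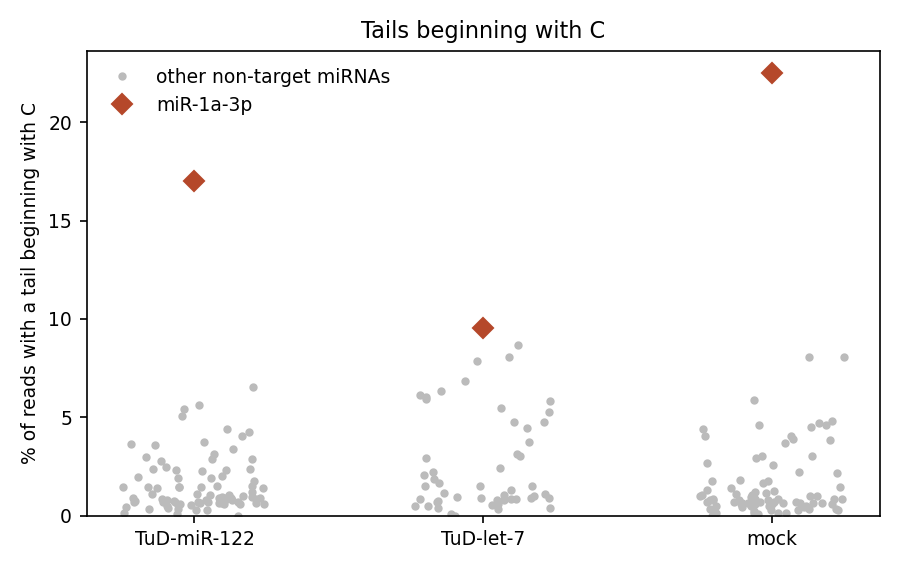
Share of reads whose 3′ tail begins with C, for each non-target arm that had 1000 reads or more in the library (grey) and for miR-1a-3p (diamond, also in TuD-let-7, where it had 84 reads). miR-1a-3p is the highest point at 16.98% in TuD-miR-122 and 22.5% in mock; in TuD-let-7 its 9.52% (4.202 to 17.9) is not resolved from the next arms.

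Markers of other tissues moved in their own ways between these libraries. Of the heart and slow muscle miRNAs, miR-499-5p had 15 reads in TuD-miR-122, 7 in TuD-let-7 and 46 in mock, with ratios to mock of 0.308 (0.160 to 0.562) and 0.424 (0.162 to 0.947). The heart miRNAs miR-208a and miR-208b had 1 read in TuD-miR-122, 0 in TuD-let-7 and 2 in mock over both precursors. The 4 smooth muscle and stromal arms of miR-143 and miR-145a summed to 1.17 times mock in TuD-miR-122 and 1.24 times mock in TuD-let-7, with no member called lower. The 6 epithelial miRNAs summed to 1.34 times mock in TuD-miR-122 and 1.03 times mock in TuD-let-7, and only miR-205-5p, known from stratified epithelium such as skin, was called lower among them. In TuD-miR-122 they went both ways, with miR-205-5p at 0.323 of mock and miR-203-3p at 0.719. The others lay between 1.90 (miR-200b-3p) and 2.42 times mock (miR-200c-3p), and miR-141-3p and miR-200c-3p were called higher. The 4 pancreas miRNAs miR-216a-5p, miR-216b-5p, miR-217-5p and miR-375-3p summed to 13.7 times mock in TuD-miR-122 (11.7 to 16.02) and 1.35 times in TuD-let-7 (1.03 to 1.77). The 3 erythroid miRNAs summed to 1.40 times mock in TuD-miR-122 and 0.886 of mock in TuD-let-7. As a check of the tissue label, the 4 hepatocyte miRNAs, led by miR-122-5p, were abundant in each library, with 1046006 in TuD-miR-122, 1065635 in TuD-let-7 and 1224113 in mock. On the RPM scale their sum was 0.808 of mock in TuD-miR-122 and 2.43 times mock in TuD-let-7, where miR-122-5p alone, which the scale leaves out, was at 2.66 times mock. The part of any of these in the levels of the muscle miRNAs was not tested.

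Fragments of muscle mRNAs were few. Of 20 skeletal muscle mRNAs listed, 6 had reads, summing to 5 reads in TuD-miR-122, 1 in TuD-let-7 and 13 in mock. Most were of the giant sarcomere gene Ttn, with 3 reads in TuD-miR-122, 0 in TuD-let-7 and 9 in mock. The ratio to mock was 0.364 for TuD-miR-122 (0.101 to 1.09) and 0.215 for TuD-let-7 (0.00505 to 1.43), intervals that include 1. Over the reads not assigned to miRNAs, a scale chosen after the data were seen, it was 0.274 for TuD-miR-122 (0.0766 to 0.820) and 0.0944 for TuD-let-7 (0.00222 to 0.628), so the result depends on the scale. No fragment of the 8 heart muscle mRNAs listed was found, but with reads this few the fragments cannot tell skeletal muscle from heart. Fragments of 10 hepatocyte mRNAs, Alb first, summed to 2361 reads in TuD-miR-122, 408 in TuD-let-7 and 1190 in mock. Their RPM ratio to mock was 1.88 for TuD-miR-122 (1.75 to 2.01) and 0.956 for TuD-let-7 (0.853 to 1.07). Over the reads not assigned to miRNAs it was 1.42 for TuD-miR-122 and 0.421 for TuD-let-7.

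The patterns of other arms over the 3 libraries were compared with that of miR-1a-3p. Likeness was the Euclidean distance of an arm's pair of log2 ratios to mock from that of miR-1a-3p, over 251 arms with at least 100 reads. The members lay at 0.24 (miR-133a-3p), 0.76 (miR-206-3p) and 1.04 (miR-133a-5p, whose 0 reads in TuD-let-7 were taken as 0.5). The 5 nearest other arms were miR-205-5p at 2.40, miR-802-5p at 3.86, miR-802-3p at 4.52, the uncertain miR-7j-5p at 4.69 and miR-149-5p at 4.76. Of the arms named here, miR-133a-5p, miR-205-5p, miR-802-3p, miR-7j-5p and miR-149-5p reached 100 reads only through mock, where they were high. Their places therefore support nothing by themselves. miR-205-5p had 53 reads in TuD-miR-122, 3 in TuD-let-7 and 155 in mock, the same order of libraries as the members.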

How the data were processed

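The deposited counts are raw reads per distinct insert, 1 file per library, with no normalisation; how adapters were removed or reads filtered, and any build, was not given in the sources used here. Per the labels' protocols, RNA was extracted from whole liver and gel-purified before library construction. The libraries held 3681585 reads (TuD-miR-122), 2066892 (TuD-let-7) and 3450317 (mock). Of these, 75.8%, 75.9% and 82.1% were assigned to miRNAs. Reads carry no molecular identifiers, and reads of different miRNAs need not stand for equal numbers of molecules.

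Inserts were matched to the 1174 miRNA precursors of GENCODE M21 (GRCm38). An arm's start was its most frequent start of untailed reads (at least 10), or the RefSeq start for muscle arms with fewer; miR-1a-2-5p was placed by the first 12 bases of miR-1a-1-5p, which both copies share. A read was assigned when it began within 2 nt of that start and matched for at least 16 nt, with a tail of up to 5 nt. The longest match decided, and ties stayed out of single arms. RPM is per 1000000 miRNA reads outside the miR-122 and let-7 loci (1562809, 529606 and 1477343 in the same order), where a floor of 3 reads is 1.92, 5.66 and 2.03 RPM. Intervals are exact at 95% and cover counting error only. With 1 library per group no test was made. The opposite arms and all muscle arms are named; other names follow the likeness and marker rules. The members, lists and rules were chosen with earlier results of these data known. mRNA fragments were unassigned reads of at least 18 nt that matched only transcripts of genes on a list. The code was tested on simulated data. Python 3.11, scipy 1.17.1. Alternatives were other scalings, exact starts, longer matches, 1 mismatch, inserts read once left out, shorter or no tails, 20 reads and 3-fold.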

Additional observations from a re-analysis of the deposited data

How the results depend on the processing

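The count of members called in TuD-miR-122 over mock was 4 or 5, in TuD-let-7 over mock 4 or 5, and in TuD-miR-122 over TuD-let-7 3, or 2 under 3 alternatives. The calls lost in the last were that of miR-133a-3p with exact starts and at a fold of 3, and that of miR-206-3p with untailed reads only, which left it 95 reads in TuD-miR-122 beside 2 in TuD-let-7. The fifth member called was miR-133b-3p, with exact starts in both comparisons with mock and at 20 reads in TuD-miR-122 over mock. No member's ratio changed direction. Scaling to all reads, which shifted the median of all tested arms in TuD-let-7 over mock to -0.76 on the log2 scale, put miR-1a-3p at 0.0125 of mock and miR-133a-3p at 0.0130, and 38 of the 197 arms tested (19.3%) were then called lower in place of 7. With all miRNA reads as the scale 31 were, and in TuD-miR-122 over TuD-let-7 either scale called 67 of 222 arms higher in place of 42. A fold of 3 called 6 of 242 arms lower in TuD-miR-122 over mock in place of 10, and 23 higher in TuD-miR-122 over TuD-let-7. Of the values of member ratios under alternatives, 108 lay within the counting interval and 8 did not. Some shares of starts, tails, lengths and arms also left their intervals. The second start of miR-133 3p in mock made up 54.7% (52.4 to 56.9) with untailed reads only, in place of 59.9%. With exact starts, tailed reads made up 57.4% of miR-133 3p in mock in place of 30.4%, and 53.5% in TuD-miR-122 in place of 27.4%. The largest dependence was that of miR-133b-3p. With exact starts, an alternative for these reads added after seeing the data, 92 reads in TuD-miR-122 were counted as miR-133b-3p in place of 2, 6 in TuD-let-7 in place of 0 and 1061 in mock in place of 21, because reads from the first start could then match no other arm. With inserts read once left out, miR-206-3p had no read in TuD-let-7. No paired analysis was possible because each group had 1 library, and for the same reason no library could be left out. In TuD-let-7 depth limits every form, arm and start share, which rest on 111 reads.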
